A study of Sus scrofa with 22 samples.

Results

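The S100 genes encode small calcium-binding proteins, and 10 of them on pig chromosome 4 were examined here in the 3 endometrial cell types collected by laser capture microdissection (LCM). The members were the calgranulins S100A8, S100A9 and S100A12 and the other S100 genes S100A2, S100A4, S100A6, S100A10, S100A11, S100A14 and S100A16, chosen by symbol. Read counts were listed for 9 of the 10, out of 12401 genes in the whole series, and each of these 9 had counts in luminal epithelium (LE), in glandular epithelium (GE) and in stroma (S). S100A4 (gene ID 100156358) was listed for no cell type and was not analysed here.

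The libraries came from 8 crossbred gilts (German Landrace x Piétrain), prepuberal when bought, which had all received PMSG and then hCG to synchronise ovulation. The 4 pregnant gilts (01, 03, 05 and 14) were inseminated with semen, and the 4 cyclic control gilts (02, 04, 06 and 13) with the supernatant of centrifuged semen of the same boar. Endometrium was taken on Day 12, when the conceptuses of the pregnant gilts were filamentous. LE and GE had 1 library from every gilt, whereas S had 3 libraries per group, without control gilt 06 and pregnant gilt 03, and the captured stromal areas held other cells, mainly immune cells, beside fibroblasts. Levels are given as CPM, that is counts scaled to library size, after TMM normalization within a cell type, with the SD over n libraries.

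S100 proteins bind calcium through a pair of EF-hand motifs and mostly act as dimers. S100A8 and S100A9 form calprotectin, which withholds zinc and manganese from microbes, and S100A12 is a related metal-binding protein. They are abundant in neutrophils and monocytes but can also be induced in epithelia, and outside cells they are ligands of the receptors TLR4 and RAGE. The other members work largely inside cells, for example S100A10 as the partner of annexin A2, S100A11 as a ligand of annexins and S100A6 as the ligand of the calcyclin-binding protein CACYBP.

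All 10 genes lie within 1244772 bases of chromosome 4 (Sscrofa11.1), in which the NCBI annotation has 48 genes, 15 of them S100 genes. From lower to higher coordinates they follow as S100A14 (chr4:96027746-96029878), S100A16 (chr4:96030930-96038602), S100A2 (chr4:96073496-96076825), S100A4 (chr4:96088102-96091160), S100A6 (chr4:96098264-96099686), S100A8 (chr4:96209670-96210603), S100A12 (chr4:96225691-96227030), S100A9 (chr4:96236114-96238989), S100A11 (chr4:97233833-97239081) and S100A10 (chr4:97261752-97272517). S100A9 is on the reverse strand and the other 9 are on the forward strand. Of the 33 genes between the outermost members that are no S100 genes, 1 was listed for any cell type. This was PGLYRP3, a gene of a peptidoglycan recognition protein, listed for LE only, at 2.09 ± 0.47 CPM in control and 11.6 ± 7.6 CPM in pregnant gilts (SD, n = 4 each, edgeR quasi-likelihood FDR 0.0131, above the threshold of 0.01).

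The 250 bases before the annotated starts of the calgranulins are shown because these 3 neighbouring genes were the members that moved together in all cell types. The letters were read from the NCBI Sscrofa11.1 genome, 5′ to 3′ on the strand of the gene. Capitals mark matches to 6 motifs searched on both strands, the AP-1 motif TGANTCA, the C/EBP motif TTGCNNAA, the STAT motif TTCNNNGAA, the TATA box TATAAA, the NF-kappa-B motif and the estrogen response element.
S100A8, chr4:96209420-96209669, forward strand: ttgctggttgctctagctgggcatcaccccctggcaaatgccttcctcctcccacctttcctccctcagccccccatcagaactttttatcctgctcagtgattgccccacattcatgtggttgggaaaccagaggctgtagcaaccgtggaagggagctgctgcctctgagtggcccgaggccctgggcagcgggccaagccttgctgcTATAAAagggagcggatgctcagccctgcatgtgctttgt
S100A9, chr4:96238990-96239239, reverse strand: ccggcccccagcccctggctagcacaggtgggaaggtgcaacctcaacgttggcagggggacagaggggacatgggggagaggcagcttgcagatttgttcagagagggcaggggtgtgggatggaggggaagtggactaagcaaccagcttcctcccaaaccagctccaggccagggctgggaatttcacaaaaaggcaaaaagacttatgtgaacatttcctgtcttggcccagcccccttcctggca
S100A12, chr4:96225441-96225690, forward strand: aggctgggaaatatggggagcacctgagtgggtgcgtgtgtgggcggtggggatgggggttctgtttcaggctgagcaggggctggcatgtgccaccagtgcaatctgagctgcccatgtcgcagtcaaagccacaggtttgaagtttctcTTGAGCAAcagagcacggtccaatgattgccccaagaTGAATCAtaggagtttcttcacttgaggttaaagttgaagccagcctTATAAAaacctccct

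These windows had no motif in common to all of the calgranulins. S100A8 had a TATA box from 40 to 35 bases before its start, and S100A12 had a TATA box from 15 to 10, an AP-1 motif 62 to 56 bases and a reverse-strand C/EBP motif 99 to 92 bases before its start. The window of S100A9 matched none of the 6. Of all 12397 windows of listed genes, 7.39% had the TATA box, 4.12% the AP-1 motif and 7.7% the C/EBP motif, while the STAT motif was in 5.69%, the NF-kappa-B motif in 5.75% and the estrogen response element in 0.00807%. Among the other members, S100A11 had an AP-1 motif, S100A4 and S100A14 each had an NF-kappa-B motif, and S100A2, S100A6, S100A10 and S100A16 had none. A match is a matter of letters only, and no binding was measured.

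Before the results, the labels of the libraries were set against marker genes. The summed level of 11 epithelial markers lay at 3153 to 3918 CPM in control LE and at 2943 to 3682 CPM in control S, and the summed level of 10 fibroblast markers was lower in control S (5374 to 9337 CPM) than in control LE (12767 to 18611 CPM). No gene differed between control S and control LE at an FDR below 0.01, and 692 of 10643 did so at an unadjusted p below 0.05 (edgeR quasi-likelihood test). The library labelled pregnant S of gilt 05 had 4646 CPM of epithelial and 9011 CPM of fibroblast markers, that of gilt 14 had 2655 and 12390 CPM, and that of gilt 01 had 1396 and 67609 CPM. The control GE library of gilt 02 likewise stood apart, with 899 CPM of epithelial and 49224 CPM of fibroblast markers. The pregnant GE library of gilt 01 had 2660 CPM of epithelial and 32148 CPM of fibroblast markers. The pregnant GE libraries of gilts 03, 05 and 14 had 2960 to 3574 and 10752 to 14682 CPM. Expression in "S" is therefore that of libraries with this label, of which only that of pregnant gilt 01 had the markers of stroma well above those of LE, and results that rest on gilts 01, 02 or 05 are also given without them. In S, all 10 fibroblast markers had a positive log2 FC of pregnant against control gilts (median 1.60), and 7 of 11 epithelial markers a negative one. Pregnant and control S thus differed in marker content, also without gilt 05. This applies to every comparison of pregnant with control S below, and its part in them was not tested. In bulk samples of this kind, fewer cells of a type and less RNA per cell cannot be told apart. Counts on listed genes lay between 893912 (pregnant LE of gilt 01) and 4020796 per library, so that 3 counts, used as the floor, corresponded to 0.69 to 3.50 CPM.

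The first question was which S100 genes differed between pregnant and control gilts within a cell type. The 3 calgranulins were near 0 in all 11 control libraries and present in all 11 pregnant libraries, whereas the other 6 members were expressed in both groups and differed by less. In LE, S100A2, S100A14 and S100A16 also rose, and in GE S100A6 did. With the thresholds of the study (FDR below 0.01 in LE, unadjusted p below 0.0021 in GE and S), 6 of the 9 members were called higher in LE, where 6.33% of 11415 genes were. In GE this number was 4 of 9, against 0.574% of 11676 genes, and in S it was 3 of 9, against 0.425% of 11532 genes. No member was called lower, compared with 3.71%, 0.12% and 1.05% of all genes. In the paper, 0.0021 was the p value that matched the FDR limit in its own LE fit. Here that limit fell at a lower p, so that LE was judged more strictly than GE and S. In LE, S100A1, S100A13, PGLYRP3 and CACYBP missed it at unadjusted p of 0.00131, 0.00134, 0.0015 and 0.00206 (edgeR quasi-likelihood test). These would have been called by the rule for GE and S. The calgranulins could enter the tables, which were filtered on CPM by the authors, only through the pregnant libraries, so that a difference was built into their listing. The median log2 FC of the 9 members was 1.97 in LE, 1.52 in GE and 1.02 in S, that of the 6 other members 0.97, 0.67 and 0.53, and that of all listed genes 0.0076, −0.021 and 0.079.

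**Figure D1:**
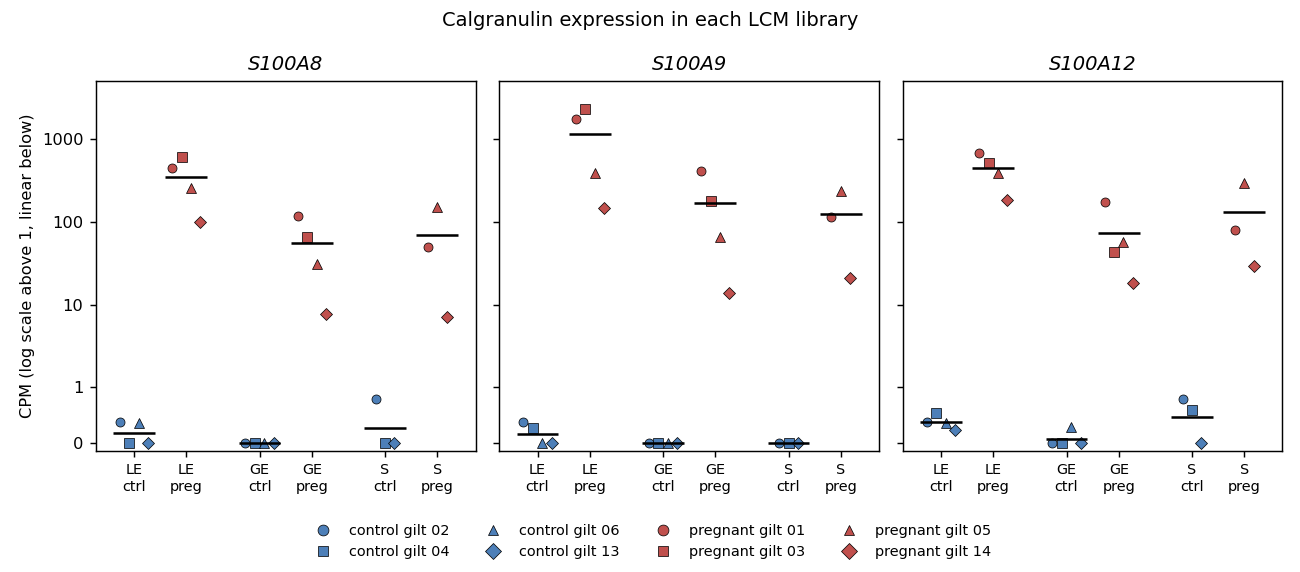
CPM of S100A8, S100A9 and S100A12 in each of the 22 libraries, with 1 point per gilt, black lines for group means and an axis that is logarithmic above and linear below 1 CPM. Control libraries lie below 1 CPM and pregnant libraries between 7.05 and 2311 CPM, with gilt 14 at the lower end in LE, GE and S.

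S100A8 (gene ID 100127488) is the smaller calprotectin subunit. In LE, it had 0.37, 0, 0.35 and 0 CPM in control gilts 02, 04, 06 and 13, and 441, 610, 254 and 99.3 CPM in pregnant gilts 01, 03, 05 and 14. In GE, no control library had a count, and the pregnant libraries had 117, 64.9, 30.7 and 7.78 CPM in the same order of gilts. In S, control gilts 02, 04 and 13 had 0.79, 0 and 0 CPM, and pregnant gilts 01, 05 and 14 had 49.4, 149 and 7.05 CPM. Every pregnant library was thus above every control library, and gilt 14 was lowest in each cell type. In LE the fitted log2 FC was 10.84 (SE 0.85, edgeR quasi-likelihood FDR 5.18e-05), in GE 10.32 (SE 1.55, FDR 0.189) and in S 7.94 (SE 1.51, FDR 0.12).

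S100A9 (gene ID 100127489) encodes the other calprotectin subunit. Its LE libraries had 0.37, 0.27, 0 and 0 CPM in control gilts 02, 04, 06 and 13, and 1718, 2311, 382 and 147 CPM in pregnant gilts 01, 03, 05 and 14. With 411, 180, 64.6 and 13.8 CPM, the pregnant GE libraries followed the order 01, 03, 05 and 14, and the control GE libraries had no count. In S, the controls again had no count, and pregnant gilts 01, 05 and 14 had 115, 232 and 20.8 CPM. The pregnant LE libraries fell into a high pair (01 and 03) and a low pair (05 and 14), around a mean of 1139.8 ± 1044 CPM (SD, n = 4). The log2 FC was 12.54 in LE (SE 1.27, edgeR quasi-likelihood FDR 0.000176), 11.93 in GE (SE 1.94, FDR 0.216) and 11.37 in S (SE 1.70, FDR 0.114).

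S100A12 (gene ID 100301483) had the smallest fold range of the calgranulins over the pregnant LE libraries, with 684, 508, 382 and 184 CPM in gilts 01, 03, 05 and 14, while control gilts 02, 04, 06 and 13 had 0.37, 0.53, 0.35 and 0.23 CPM. In GE it had 174, 43.2, 56.8 and 18.03 CPM in the pregnant gilts and a single count in 1 control library. In S, control gilts 02, 04 and 13 had 0.79, 0.58 and 0 CPM, and pregnant gilts 01, 05 and 14 had 78.5, 290 and 29.4 CPM. Here too the groups did not overlap in any cell type, and the library of gilt 05 was the highest in S but not in LE or GE. The log2 FC was 10.06 in LE (SE 0.56, edgeR quasi-likelihood FDR 1.30e-05), 9.17 in GE (SE 1.09, FDR 0.057) and 8.04 in S (SE 1.20, FDR 0.0683).

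Because no control library had more than 2 counts of a calgranulin, these fitted values and their SEs depend on a prior count. Fold changes are therefore better given as lower bounds against 3 counts in the shallowest control library. By that bound, S100A9 was at least 1030-fold higher in LE, at least 117-fold in GE and at least 104-fold in S. The bounds moved with single libraries, as that of LE was 677 without pregnant gilt 03, that of GE 60.2 without gilt 01, and that of S 57.5 without gilt 05, whose S library is doubted. In GE and S, none of the calgranulins passed an FDR of 0.05, and their calls there rest on the unadjusted p. S100A12 was called in every fit that left out 1 gilt, in GE (8 of 8) and in S (6 of 6), as was S100A8 in GE (8 of 8). S100A9 was no longer called in GE without pregnant gilt 03 (edgeR quasi-likelihood FDR 0.427) or 05 (FDR 0.551), nor in S without gilts 01 (FDR 0.161), 02 (FDR 0.355) or 04 (FDR 0.201). S100A8 was called in S in 1 of 6 such fits, that without pregnant gilt 14. In the other 5, without gilts 01, 02, 04, 05 or 13, its FDR lay between 0.113 and 0.466. Without the doubted S library of gilt 05, the log2 FC of S100A8 in S was 6.61 (SE 1.34), and all 3 calgranulins still had higher values in both remaining pregnant libraries than in the controls. The control S libraries in this comparison had epithelial markers at the level of LE themselves.

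**Figure D2:**
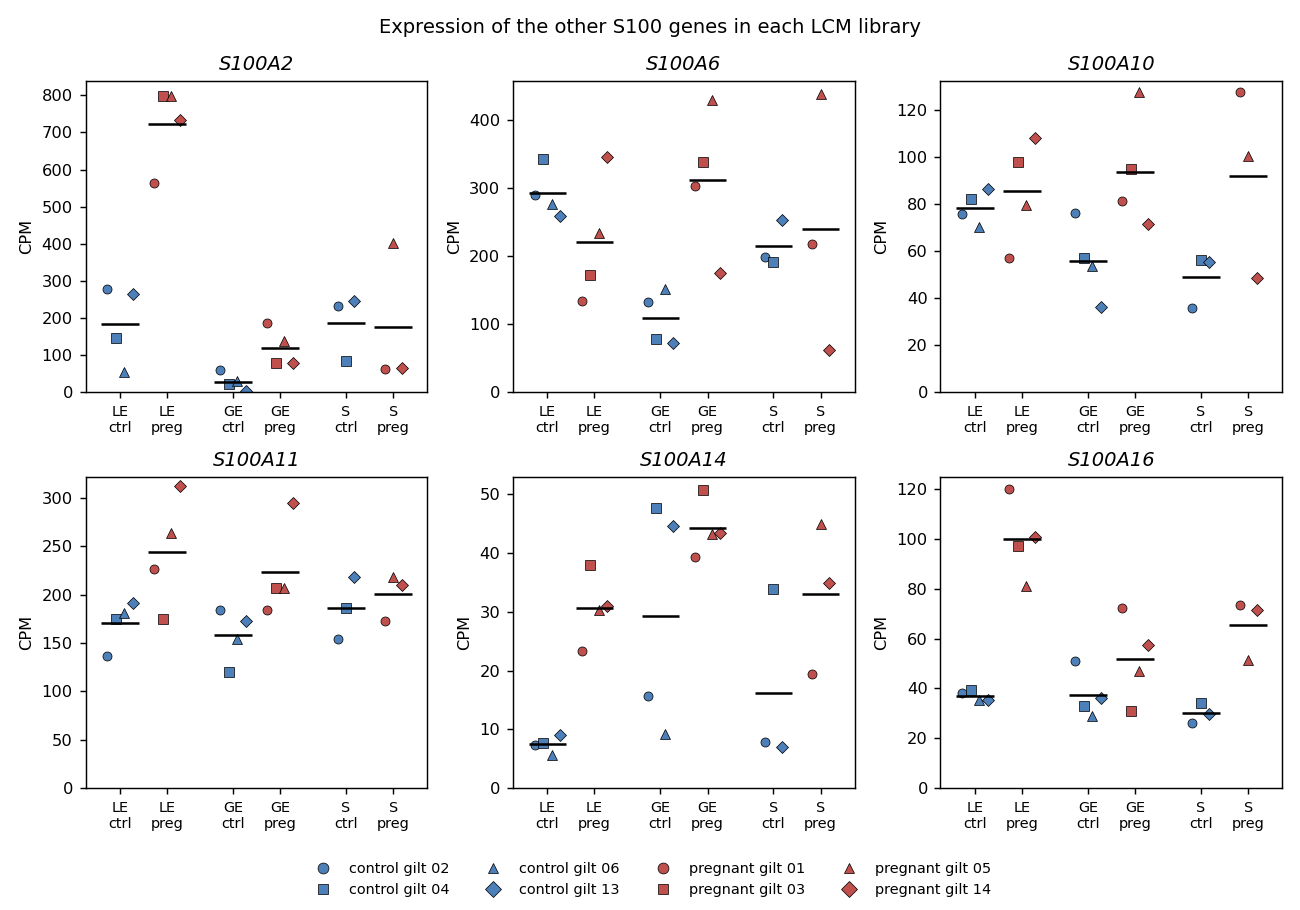
CPM of the 6 other listed S100 genes in each library, with 1 point per gilt, black lines for group means and separate linear axes that start at 0. S100A2, S100A14 and S100A16 have no overlap between control and pregnant LE, and S100A6 has none between control and pregnant GE.

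S100A2, a nuclear and cytoplasmic protein of epithelial cells, also rose in LE. The control LE libraries of gilts 02, 04, 06 and 13 had 277, 146, 53.2 and 265 CPM, and those of pregnant gilts 01, 03, 05 and 14 had 564, 798, 799 and 733 CPM. In GE the values were 58.5, 21.5, 29.7 and 3.24 CPM in the control and 187, 77.9, 138 and 78.1 CPM in the pregnant gilts. In S they were 233, 85.0 and 246 CPM in control gilts 02, 04 and 13 and 62.3, 402 and 64.6 CPM in pregnant gilts 01, 05 and 14. The groups were separate in LE and in GE but overlapped in S, where only gilt 05 exceeded the controls. The log2 FC in LE was 1.97 (SE 0.43, edgeR quasi-likelihood FDR 0.0091), close to the threshold, and among the fits without single gilts only that without control gilt 06 also passed it. Without any 1 of the gilts 01, 02, 03, 04, 05, 13 and 14 the FDR lay between 0.0105 and 0.0332. In GE the log2 FC of 2.09 was of the same size but less precise (SE 0.69, FDR 0.468), and in S it was −0.09 (SE 0.79, FDR 0.983), with positive values without any 1 of the gilts 01, 02, 13 and 14 (0.098 to 0.32).

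S100A14 and S100A16, neighbouring genes whose products are expressed in epithelia, had their smallest SD in control LE. For S100A14 this was also the group with the lowest mean (7.42 ± 1.41 CPM, SD, n = 4). Relative to the mean, its spread was smaller in pregnant GE (44.2 ± 4.74 CPM, SD, n = 4). S100A14 had 7.38, 7.75, 5.57 and 8.97 CPM in control LE of gilts 02, 04, 06 and 13 and 23.4, 37.9, 30.2 and 30.9 CPM in pregnant LE of gilts 01, 03, 05 and 14. S100A16 had 38.0, 39.3, 35.5 and 35.2 CPM in control LE and 120, 97.1, 81.0 and 101 CPM in pregnant LE. Both rose in LE without overlap, S100A14 with a log2 FC of 2.04 (SE 0.25, edgeR quasi-likelihood FDR 0.000453) and S100A16 with one of 1.42 (SE 0.17, FDR 0.000389), and both calls were kept in all 8 fits without single gilts. In GE the groups overlapped for both genes, and the log2 FC was 0.60 (SE 0.48) for S100A14 and 0.47 (SE 0.29) for S100A16.

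For S100A16 the S libraries had 26.0, 34.2 and 29.7 CPM in control gilts 02, 04 and 13 and 73.6, 51.6 and 71.7 CPM in pregnant gilts 01, 05 and 14, again without overlap. Its log2 FC of 1.13 in S (SE 0.26, edgeR quasi-likelihood FDR 0.155) missed the threshold, but was past it with the likelihood ratio test of edgeR and with DESeq2 (FDR 0.0429 and 0.0092). Of the 50-base windows of S100A16, 24.3% also occur in other gene models, mainly the pseudogene LOC100737436, so that reads could have been divided between them. The windows of the 8 other listed members were unique. S100A14 in S had 7.87, 33.9 and 6.96 CPM in the controls and 19.4, 44.9 and 34.9 CPM in the pregnant gilts, with overlap (log2 FC 1.02, SE 0.66).

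S100A6 (calcyclin) was the member called in GE only. Its GE libraries had 133, 78.7, 152 and 72.9 CPM in control gilts 02, 04, 06 and 13 and 303, 339, 429 and 176 CPM in pregnant gilts 01, 03, 05 and 14, without overlap. In LE the control gilts had 290, 343, 277 and 260 CPM and the pregnant gilts 134, 172, 234 and 346 CPM, so that 3 of the 4 pregnant libraries were below every control and that of gilt 14 was above. The log2 FC was 1.52 in GE (SE 0.34, edgeR quasi-likelihood FDR 0.28) and −0.39 in LE (SE 0.27, FDR 0.328). The call in GE was lost without any 1 of the gilts 01, 03, 04, 05 and 13, with an FDR between 0.265 and 0.696, and was kept without control gilt 02, whose GE library carried the fibroblast markers. In S the values ran from 192 to 254 CPM in the controls and were 218, 439 and 61.6 CPM in pregnant gilts 01, 05 and 14, a log2 FC of 0.16 (SE 0.61) that turned to −0.63 (SE 0.54) without gilt 05.

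S100A10 and S100A11 were called in no cell type. S100A10 lay between 70.3 and 86.3 CPM in control LE and between 57.2 and 108 CPM in pregnant LE (log2 FC 0.14, SE 0.20). Its means in GE were 55.9 ± 16.4 and 93.8 ± 24.6 CPM in control and pregnant gilts (SD, n = 4 each, log2 FC 0.75, SE 0.27, FDR 0.495), and in S 49.2 ± 11.6 and 92.2 ± 40.4 CPM (SD, n = 3 each, log2 FC 0.90, SE 0.39, FDR 0.412). S100A11 lay at 171 ± 23.9 and 244 ± 58.1 CPM in control and pregnant LE (log2 FC 0.52, SE 0.20, FDR 0.0952), at 158 ± 27.9 and 223 ± 48.7 CPM in GE (log2 FC 0.50, SE 0.21) and at 186 ± 32.3 and 200 ± 24.6 CPM in S (log2 FC 0.11, SE 0.24). For S100A11 in GE every pregnant library was above every control library, if only by 184.2 against 184.1 CPM at the border. By this measure 6 of 9 members were separate in LE, 6 in GE and 4 in S, where 14%, 2.72% and 8.18% of all genes had every pregnant library above every control library. These numbers include the 3 calgranulins, for which a difference was built into the listing. Of the 6 other members, 3 were separate in LE, 3 in GE and 1 in S, the last not far from the share of all genes.

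**Figure D3:**
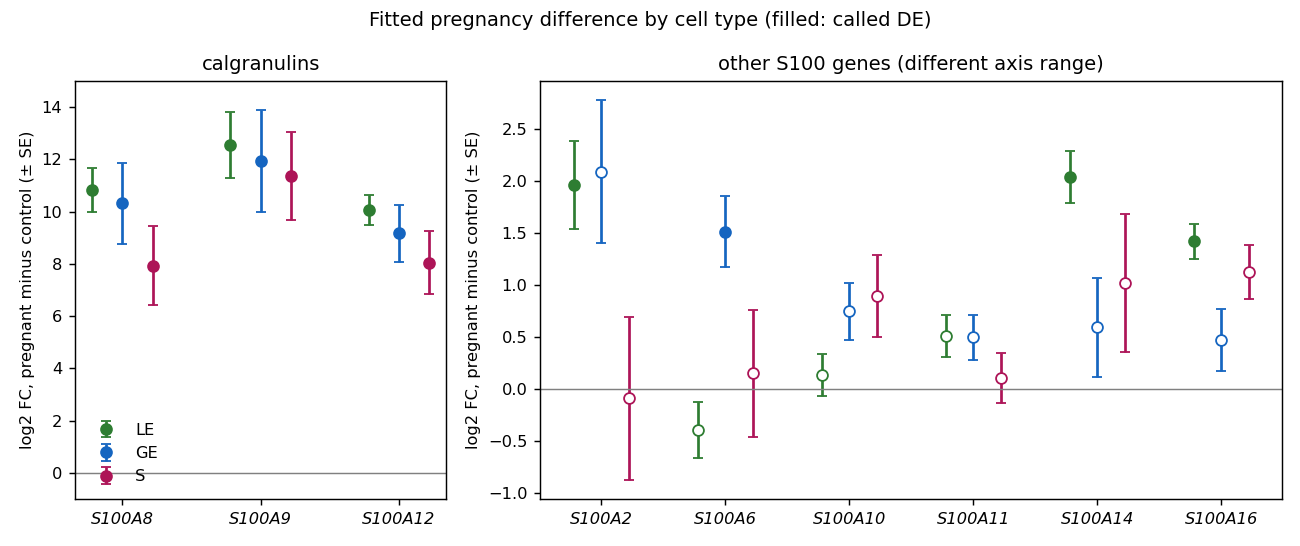
Fitted log2 FC of pregnant against control gilts for the 9 listed S100 genes in LE, GE and S, with bars of 1 SE, filled points for called genes and different axis ranges for the calgranulins and the other genes. The calgranulins lie between 7.94 and 12.54, and the other members between −0.39 and 2.09. The SEs of the calgranulins depend on a prior count, as their control levels were near 0.

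Levels of different genes can be compared per length, as CPM per kb of exon. On this scale, S100A6 (529 ± 65.3), S100A11 (344 ± 48.1) and S100A2 (328 ± 188) led in control LE (SD, n = 4), of which the latter pair differed by less than its spread, followed by S100A10 (94.9 ± 8.50), S100A16 (14.3 ± 0.76) and S100A14 (6.86 ± 1.30). In pregnant LE, S100A9 (1480 ± 1355), S100A2 (1283 ± 196), S100A12 (1214 ± 582) and S100A8 (909 ± 575) were highest, with differences among them smaller than their spread, and S100A11 (491 ± 117) and S100A6 (401 ± 168) followed. This order of the means did not hold in every gilt. In gilt 14, S100A9 (191), S100A8 (257) and S100A12 (508) lay below S100A6 (626) and S100A11 (628), and in gilt 05 S100A9 (497) lay below S100A11 (530), whereas S100A2 was above both in all 4 gilts. Pregnant GE had S100A6 (564 ± 190) and S100A11 (449 ± 98.0) at the top, and the calgranulins there were at 142 to 217 CPM per kb. In pregnant S, S100A6 (433 ± 343), S100A11 (403 ± 49.5) and S100A12 (367 ± 383) were not separated beyond their spread (SD, n = 3).

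The second question was whether the level of a member differed between cell types of the same gilts, tested in 1 model of the 22 libraries with the gilt as a block, over the 10643 genes that every cell type listed. In pregnant gilts, the calgranulins, S100A2 and S100A16 were lower in GE than in LE. These 5 of 9 members passed an FDR of 0.01, where 7.91% of genes were lower and 15.8% different. The log2 difference was −2.92 for S100A8 (SE 0.57, FDR 0.00552), −2.89 for S100A9 (SE 0.58, FDR 0.00608), −2.87 for S100A12 (SE 0.46, FDR 0.000754), −2.67 for S100A2 (SE 0.68, FDR 0.00956) and −1.001 for S100A16 (SE 0.18, FDR 0.00165). S100A6, S100A10, S100A11 and S100A14 differed by −0.13 to 0.54. The call of S100A12 was kept in all 8 fits without single gilts. Without pregnant gilt 03, S100A8, S100A9, S100A2 and S100A16 had an FDR between 0.0187 and 0.055, and without gilt 14, S100A8, S100A9 and S100A2 had one between 0.0287 and 0.054. Without gilt 05, S100A9 (FDR 0.0101) and S100A2 (FDR 0.0248) missed the threshold, and S100A2 also missed it without gilts 01 (FDR 0.0144), 02 (FDR 0.0133) or 04 (FDR 0.0215). Without the block of the gilt, which pairs the libraries of an animal, 2 of 9 members were called, as S100A8 (FDR 0.0271), S100A9 (FDR 0.0563) and S100A2 (FDR 0.0121) then missed it.

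Between pregnant S and pregnant LE, 0 of 9 members passed an FDR of 0.01, where 3.14% of genes did and 0.817% were lower in S. An unadjusted p below 0.05 was found for 6 of 9 members and for 3332 of all 10643 genes (edgeR quasi-likelihood test). At an FDR of 0.05 there were 5 of 9 against 14.6% of genes, S100A8 (−2.42, SE 0.66, FDR 0.0413), S100A9 (−2.42, SE 0.67, FDR 0.0445), S100A12 (−2.004, SE 0.52, FDR 0.0233), S100A2 (−2.58, SE 0.79, FDR 0.0433) and S100A16 (−0.77, SE 0.21, FDR 0.0273). Here the result rested on gilt 05, whose S library had LE-like marker levels. Without this gilt, S100A8 (−3.68, SE 0.45, FDR 0.0068) and S100A12 (−3.07, SE 0.45, FDR 0.0043) passed 0.01. Pregnant S and pregnant GE did not differ in any member at an FDR of 0.01, nor in any gene, and 0 of 9 members and 310 genes had an unadjusted p below 0.05 (edgeR quasi-likelihood test). For the calgranulins these differences, S minus GE, were 0.48 to 0.87 with SEs of 0.51 to 0.65, which leaves room for either direction.

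In control gilts, where the calgranulins were near 0, no member differed between cell types at an FDR of 0.01, compared with 1.84% of genes between GE and LE and no gene in the other pairs. At 0.05, 3 of 9 members differed between GE and LE, against 11.7% of genes. S100A2 was lower in GE (log2 difference −2.65, SE 0.72, FDR 0.0324), S100A6 was lower in GE (−1.48, SE 0.43, FDR 0.0415), and S100A14 was higher in GE (1.74, SE 0.40, FDR 0.0163). S100A14 in control GE was at 47.7 and 44.6 CPM in gilts 04 and 13 but at 15.7 and 9.16 CPM in gilts 02 and 06, and without gilt 06 its FDR was 0.0097. Between S and LE, 0 of 9 members had an unadjusted p below 0.05, and between S and GE 3 of 9, as did 692 and 1891 of all genes.

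**Figure D4:**
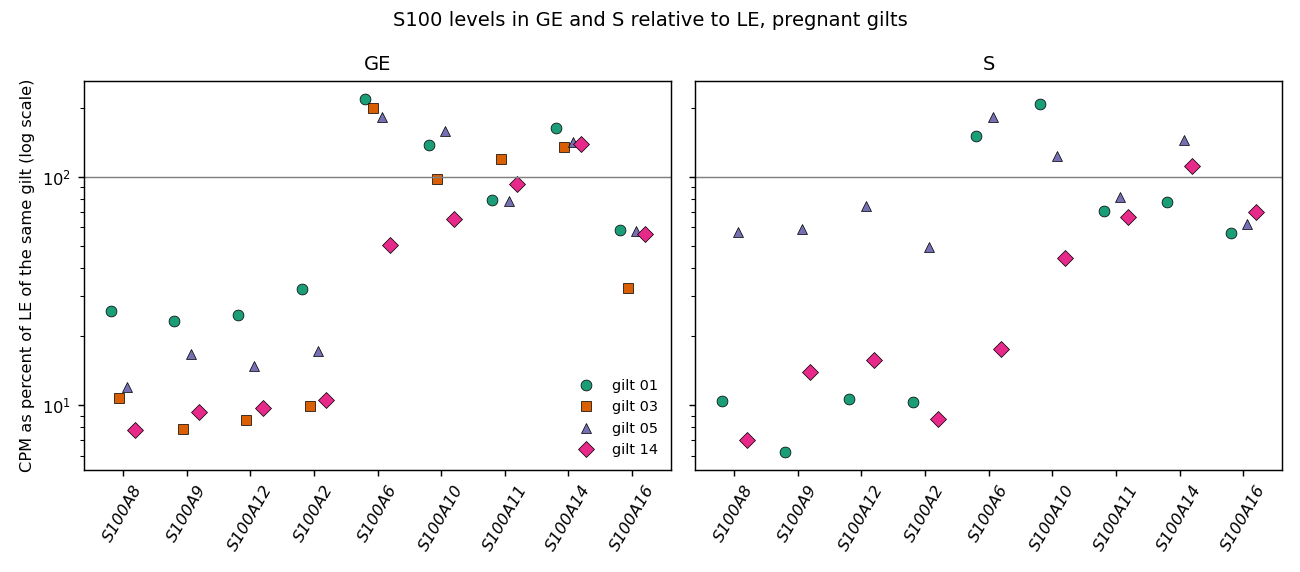
CPM of the 9 listed S100 genes in GE and S of each pregnant gilt as a percentage of the LE library of the same gilt, on a log axis with a line at 100%. The calgranulins and S100A2 lie between 7.74% and 32.2% in GE, and in S the values of gilt 05 lie at 49.3% to 74.4% and those of gilts 01 and 14 at 6.22% to 15.8%.

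Set against the LE library of the same gilt after joint normalization, the calgranulins and S100A2 moved in step. In GE, S100A8 had 25.7%, 10.8%, 12.1% and 7.74% of the LE level in gilts 01, 03, 05 and 14, S100A12 had 24.8%, 8.61%, 14.8% and 9.69%, and S100A2 had 32.2%, 9.89%, 17.2% and 10.5%. In S, S100A9 had 6.22%, 59.4% and 14.002% in gilts 01, 05 and 14, and S100A2 had 10.3%, 49.3% and 8.70%. Gilt 01 was thus highest in GE and gilt 05 in S for each of these genes. The GE library of gilt 01 also had the most fibroblast markers among pregnant GE (32148 CPM). Other genes of pregnant LE had like percentages, for example ACOD1, which encodes the itaconate-forming enzyme, with 16.02%, 12.9%, 20.7% and 4.89% in GE and 3.68%, 52.4% and 14.8% in S. The median over 651 genes called higher in pregnant LE was 49.6%, 35.5%, 42.7% and 46.0% in GE and 37.3%, 67.2% and 44.3% in S. By contrast, S100A14 had 136% to 164% of its LE level in GE, and S100A6 had 220%, 200%, 182% and 50.3%. Whether epithelium of the lumen was carried into GE or S captures was not tested.

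The third question was whether the response to pregnancy itself differed between cell types. No member passed an FDR of 0.01 for any pair, compared with 0.395% of genes for LE and GE, 0.0188% for LE and S and none for GE and S, and 3, 1 and 2 of 9 members had an unadjusted p below 0.05, as did 1836, 1622 and 1054 of all genes (edgeR quasi-likelihood test). The nearest was S100A16, whose log2 FC was larger in LE than in GE by 0.99 (SE 0.26, FDR 0.0571). For S100A6 the log2 FC was lower in LE than in GE by 1.85 in size (−1.85, SE 0.61, FDR 0.126), and without pregnant gilt 14 the difference was −2.50 (SE 0.35, FDR 0.0049). At an FDR of 0.05 no member was called either, compared with 2.93% of genes for LE and GE. S100A14 differed by 1.20 between LE and GE (SE 0.53, FDR 0.264), and S100A2 by 2.46 between LE and S (SE 1.03, FDR 0.276). For the calgranulins these differences could not be measured with use, since the control levels were at or near 0. Their SE for LE and GE was 1.44 to 4.30, but that of S100A9 was 0.085 for LE and S and 47938 for GE and S. With control counts near 0, such an SE is no measure of precision. Being called in LE alone does not show that a response is restricted to LE.

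**Figure D5:**
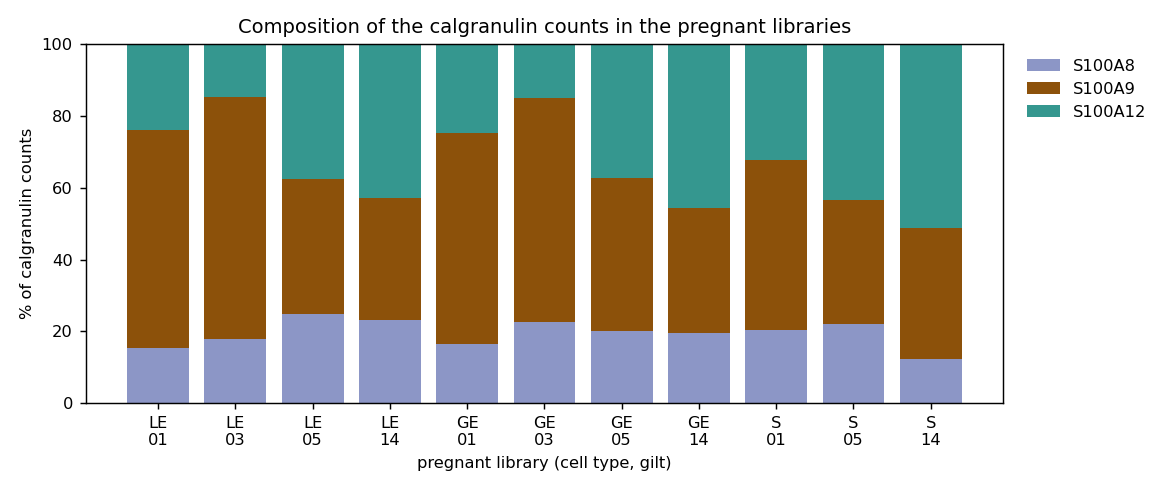
Share of S100A8, S100A9 and S100A12 in the calgranulin counts of each of the 11 pregnant libraries, as stacked bars that sum to 100%. S100A9 holds 60.4% and 67.4% in LE of gilts 01 and 03 and 37.5% and 34.1% in LE of gilts 05 and 14.

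The calgranulins did not keep 1 ratio in all gilts. Summed over the 3 genes, pregnant LE had 2844, 3429, 1019 and 430.1 CPM in gilts 01, 03, 05 and 14. S100A9 held 60.4% of these counts in gilt 01 (95% interval 58.5 to 62.4, exact Clopper-Pearson, counting error only) and 67.4% in gilt 03 (66.3 to 68.5), but 37.5% in gilt 05 (35.9 to 39.2) and 34.1% in gilt 14 (31.6 to 36.7). In GE, S100A9 held 58.6% (56.0 to 61.2), 62.5% (59.3 to 65.6), 42.5% (38.2 to 46.8) and 34.8% (26.1 to 44.4) in the same order. In GE as in LE, the high pair 01 and 03 was thus apart from 05 and 14. In the read statistics of the paper, the libraries of gilts 01 and 03 also had a higher GC percentage than those of 05 and 14. This held in LE and in GE, and in S gilt 01 was likewise above 05 and 14. The part of GC content in these shares was not tested. In S the share was 47.3% (41.6 to 53.2) in gilt 01, 34.5% (32.5 to 36.7) in gilt 05 and 36.4% (29.5 to 43.7) in gilt 14. Per count of S100A8 there were 1.48 to 3.89 counts of S100A9 and 0.67 to 4.17 counts of S100A12 over the 11 libraries.

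Over all 22 libraries, the genes whose profile was most like the mean profile of the calgranulins were ADAMTS20, LAMB3, SLCO5A1, SERPINB7 and ACOD1, by the root mean square difference of log2 CPM around each gene's mean (1.08, 1.14, 1.23, 1.26 and 1.29, among 10643 genes). The calgranulins themselves were at 0.36, 0.52 and 0.39 from their mean. ADAMTS20, an extracellular protease, had 4.88 ± 2.33 and 755 ± 361 CPM in control and pregnant LE (SD, n = 4 each, edgeR quasi-likelihood FDR 6.14e-05), and LAMB3, a laminin chain of basement membranes, had 0.99 ± 0.52 and 208 ± 76.9 CPM (FDR 1.30e-05). These were chosen for likeness, so that their differences are a description. In pregnant S all 5 had their highest level in gilt 05, as the calgranulins did.

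Beside the 10 members, the annotation has 12 S100 genes, of which 8 were listed for LE, 5 for GE and 7 for S. In LE 3 of the 8 were called higher, against 6.33% of all genes, and in GE and S none was, against 0.574% and 0.425%. S100G (gene ID 397265), the vitamin D-dependent calbindin, had 94.1, 67.3, 17.1 and 45.3 CPM in control LE of gilts 02, 04, 06 and 13 and 346, 536, 626 and 179 CPM in pregnant LE of gilts 01, 03, 05 and 14. The groups did not overlap, and the log2 FC was 2.92 (SE 0.52, edgeR quasi-likelihood FDR 0.00333), with an FDR just above the threshold without gilts 04 (0.0124), 05 (0.0112) or 13 (0.0141). In GE it had 13.4 ± 9.28 and 59.2 ± 30.8 CPM (SD, n = 4 each, log2 FC 2.14, SE 0.90, FDR 0.59), and it was not called in S. There, control gilts 02, 04 and 13 had 79.5, 49.4 and 44.3 CPM and pregnant gilts 01, 05 and 14 had 23.5, 279 and 20.2 CPM, so that only the doubted library of gilt 05 was above the controls and the other two were below all of them. LOC102161828, an S100 gene without a symbol, had 0.23 to 2.21 CPM in control LE and 39.7, 77.9, 85.3 and 64.0 CPM in the pregnant gilts (log2 FC 5.60, SE 0.45, FDR 6.05e-05). S100A7, called psoriasin in humans, was called in LE, where it had 24.5, 9.87, 30.2 and 4.37 CPM in pregnant gilts 01, 03, 05 and 14 and no count in the controls. It could be listed only through the pregnant libraries, so that a difference was built in for this gene, which counts among the 3 called. Of its 50-base windows, 60.1% also occur in LOC110260465, so that its reads could have been divided too.

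S100A1 and S100A13 went the other way. In LE, S100A1 had 120, 113, 130 and 106 CPM in control gilts and 59.5, 37.4, 52.9 and 83.4 CPM in pregnant gilts, and S100A13 had 18.7 ± 6.61 and 6.01 ± 2.30 CPM (SD, n = 4 each). For both genes the groups did not overlap, but the threshold was missed, at a log2 FC of −1.002 (SE 0.23, edgeR quasi-likelihood FDR 0.0119) and −1.65 (SE 0.38, FDR 0.0121). Without pregnant gilt 14 both passed it (FDR 0.00169 and 0.00643). The exons of these genes overlap by 200 bases on opposite strands, and as the use of strand in counting is not stated, their reads cannot be told apart there. S100B, its near copy LOC110258323 and the S100A16 pseudogene LOC100737436 were not called in any cell type that listed them.

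Of 18 genes of S100 receptors and binding partners, 15 were listed in each cell type, with TLR4, the annexins A1, A2, A6 and A11, CACYBP and AHNAK in each of them and the TLR4 co-receptor gene LY96 in LE only. None was called in LE, where 6.33% of all genes were called higher and 3.71% lower, and none in GE, where 0.574% and 0.12% were. In S 1 of 15 was called lower, against 1.05% of all genes. This was TLR4, at 60.3 ± 19.2 CPM in control and 13.8 ± 1.94 CPM in pregnant S (SD, n = 3 each, log2 FC −2.13, SE 0.34, edgeR quasi-likelihood FDR 0.0807), and at 48.8 and 23.0 CPM in control and pregnant LE (log2 FC −1.04, SE 0.34, FDR 0.0509). ANXA2, the partner of S100A10, had 305 and 368 CPM in control and pregnant LE, 404 and 651 CPM in GE and 262 and 549 CPM in S, and was not called. The median log2 FC of the list was 0.23 in LE, 0.033 in GE and 0.22 in S. AGER, the gene of the receptor RAGE, was not analysed here.

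A list of 18 genes of transcription factors, cytokines and receptors placed upstream of the calgranulins had 12 listed members in each cell type. In LE, 3 of the 12 were called higher and 1 lower, where 6.33% and 3.71% of all genes were. In GE none was called, and in S 1 of 12 was called lower, against 1.05% of all genes. IL1R1, the signalling receptor of interleukin 1, rose from 305 ± 92.0 to 2270 ± 595 CPM in LE (log2 FC 2.89, SE 0.29, edgeR quasi-likelihood FDR 0.000157), and its accessory protein gene IL1RAP from 259 ± 31.8 to 1522 ± 830 CPM (log2 FC 2.56, SE 0.38, FDR 0.00132). CEBPB, a transcription factor of myeloid cells and epithelia, rose from 35.1 ± 9.26 to 141 ± 37.2 CPM (log2 FC 2.004, SE 0.26, FDR 0.000612). IL1A, the gene of a cytokine that acts on this receptor, fell in LE from 91.6 ± 17.8 to 39.4 ± 13.05 CPM (log2 FC −1.19, SE 0.26, FDR 0.00913). It also fell in S, where it had 102 ± 33.7 CPM in control and 16.4 ± 11.6 CPM in pregnant gilts (log2 FC −2.60, SE 0.53, FDR 0.127). Of the fits without single gilts, that without gilt 14 kept the call in LE (the others had an FDR of 0.0122 to 0.0306), and that without gilt 05 kept the call in S (FDR 0.15 to 0.444 in the others). In LE 11 of the 12 had a positive log2 FC (median 0.84), as did 5769 of all 11415 genes. An unadjusted p below 0.05 was found in LE for 9 of the 12 and for 4059 of all genes (edgeR quasi-likelihood test). STAT3 and RELA, which were not called, had a log2 FC of 0.0080 and 0.096 in LE.

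Of 11 antimicrobial genes of epithelia, 3 were listed for LE and 4 each for GE and S. In GE 1 of 4 was called higher and in S 1 of 4, against 0.574% and 0.425% of all genes, and in LE 0 of 3. The list did not move in 1 direction. The log2 FC was positive for 2 and negative for 1 in LE (median 0.14), 3 and 1 in GE (median 1.17), and 2 and 2 in S (median −0.45). SLPI, a secreted protease inhibitor, was called higher in GE (59.5 ± 41.2 and 305 ± 74.0 CPM, log2 FC 2.35, SE 0.48, edgeR quasi-likelihood FDR 0.216) and in S (11.03 ± 3.41 and 125 ± 97.3 CPM, log2 FC 3.50, SE 0.73, FDR 0.132), but not in LE (7.53 and 28.2 CPM, log2 FC 1.80, SE 0.74, FDR 0.112). Its mean over pregnant gilts was thus highest in GE, while those of the calgranulins were highest in LE. The call of SLPI in GE was lost without any 1 of the gilts 01, 02, 03, 05 and 06 (FDR 0.279 to 0.551), and that in S was kept only without gilt 14 (FDR 0.14 to 0.495 in the other 5 fits).

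Markers of other cells were examined beside the calgranulins. Of 12 granulocyte markers, 2 were listed for LE, 1 for GE and 2 for S. The rest, among them CSF3R, CXCR1, CXCR2, MPO and ELANE, were not analysed here. Of those listed, 1 of 2 was called higher in LE, where 6.33% of all genes were, and none was called in GE or S. MMP8, a collagenase on this list, rose in LE from 129 ± 88.8 to 2051 ± 1206 CPM (SD, n = 4 each, log2 FC 3.99, SE 0.62, edgeR quasi-likelihood FDR 0.00157). It was not called in GE, where it had 25.3 ± 25.9 and 289 ± 176 CPM in control and pregnant gilts (log2 FC 3.51, SE 1.08, FDR 0.444), nor in S, with 163 ± 129 and 854 ± 908 CPM (SD, n = 3 each, log2 FC 2.39, SE 1.03, FDR 0.405). Of 8 pan-leukocyte markers 6 were listed for LE, with a sum of 139 to 252 CPM in control and 276 to 337 CPM in pregnant LE, of which LAPTM5 was called (71.2 ± 13.3 and 229 ± 25.8 CPM) and PTPRC had 42.2 and 22.3 CPM. Of these 6, 1 was called higher, where 6.33% of all genes were. The mean was higher in pregnant LE for 2 of the 6 and lower for 4, with a median log2 FC of −0.33. The higher sum thus came with LAPTM5. The sum of the listed pan-leukocyte markers was 118 to 150 and 116 to 151 CPM in GE and 107 to 131 and 159 to 205 CPM in S. None of the 8 listed macrophage genes (of 13) was called in any cell type, with sums of 126 to 243 and 79.8 to 160 CPM in control and pregnant LE, 116 to 192 and 83.8 to 213 CPM in GE and 83.9 to 109 and 89.5 to 393 CPM in S. In S all 8 had a higher mean in the pregnant gilts (median log2 FC 0.89), and in LE 1 of 8 did. The lists of 12 genes of stratified epithelia and 5 genes of the trophoblast had 0 listed members and were not analysed here. The part of leukocytes in the calgranulin levels was not tested.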

How the data were processed

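RNA-seq counts of LE, GE and S cells captured by LCM from 8 gilts were analysed (22 libraries). According to the paper, the authors made Ovation SoLo libraries for single-read sequencing, clipped adapters, mapped with Hisat2 to Sscrofa11.1, removed PCR duplicates by random adapter bases and filtered genes by CPM. The deposited files are 1 table of read counts for each cell type, whole numbers that are not normalized. Counting tool, use of strand and CPM cut-off are not given in the sources used here.

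From these counts, pregnant and control gilts were compared within each cell type by the quasi-likelihood F test of edgeR 4.0.16 under R 4.3.3, after TMM normalization, over all listed genes (FDR after Benjamini-Hochberg). Whole tables were fitted and members read from them. The SE of an edgeR fit was computed as the size of the log2 difference divided by the square root of the F statistic. Cell types and interactions were tested in 1 joint fit with the gilt as a block (FDR below 0.01). Libraries with the same number come from 1 animal, and deviations from group means correlated within gilts with medians of 0.257 (LE and GE), 0.314 (LE and S) and 0.468 (GE and S), against −0.023, −0.033 and −0.044 between other gilts. Gene names, coordinates and exon lengths came from the NCBI annotation. A gene absent from a table was treated as not analysed, not as 0. Named genes were the members, every other listed S100 gene, called genes of the lists of receptors and partners, regulators and antimicrobial proteins, and the 5 most like genes. Other names were chosen after their values were seen. The members and lists were chosen with earlier results of these data known. 1 listed marker gene is not reported here. The procedure was tested on simulated data. Alternatives were other normalizations, filters, tests and thresholds, thinned counts, no block, limma 3.58.1 with a random block, DESeq2 1.42.0 and leaving out each gilt.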

Additional observations from a re-analysis of the deposited data

How the results depend on the processing

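Of 27 log2 FC values of members, those of S100A10 in LE, S100A11 in S, S100A2 in S and S100A6 in S, none of them called, changed sign in at least 1 alternative. S100A10 in LE was −0.0098 with library size alone. Without single gilts, S100A11 in S ran from −0.015 (without gilt 02) to 0.24, S100A6 in S from −0.63 (without gilt 05) to 0.62, and S100A2 in S from −1.56 (without gilt 05) to 0.32, with 0.098, 0.16 and 0.29 without gilts 02, 13 and 01. With at least 10 counts in every library, which removes the calgranulins, LE had 3 called members, GE 1 and S 0. An FDR of 0.01 or 0.05 in every cell type left 0 in GE and 0 in S. With only the 6 gilts that have an S library, 1 was called in GE. Leaving out each gilt gave 5 to 6 calls in LE, 2 to 4 in GE and 1 to 3 in S.

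Between GE and LE of pregnant gilts, 2 members were called without the replicate block and 2 with at least 10 counts in every library, and 1 to 5 without single gilts. Between S and LE of pregnant gilts there were 2 with the gilt as a random replicate block, 5 at an FDR of 0.05 and 0 to 2 without single gilts. Between GE and LE of control gilts, the numbers were 1 with the random block, 3 at an FDR of 0.05 and 0 to 1 without single gilts, and for the difference in response between LE and GE they were 0 to 1. The counts of the other comparisons of cell types stayed at 0. Depth limits the calgranulins in controls, where 3 counts are 0.69 to 1.43 CPM, and with 3 libraries per group S has the least precision. The causes of these changes were not tested.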
